A study of Mus musculus with 16 samples.

Results

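The 9 genes described here, Wt1, Bnc1, Msln, Upk3b, Gpm6a, Krt7, Krt8, Krt18 and Krt19, are genes of the mesothelium and of simple-type keratins, followed in primary mouse lung fibroblasts after knockdown of 3 lysyl oxidases. They were chosen by name: every non-control array probe that the scanner files assign to one of the 9 symbols was taken, which gave 10 of 55681 probes, 2 of them for Krt8 and 1 for each other gene. The cells had been passaged at least 3 times and were collected 48 hours after transfection with small interfering RNA (siRNA). One group received siRNA against Lox (siLox), the next against Loxl1 (siLoxL1), the next against Loxl2 (siLoxL2), and the control group a scrambled sequence (scr). Each group holds 4 one-colour (Cy3) arrays. The labels give neither strain nor age, and they do not say whether the 4 samples of a group came from separate cultures or animals, so p-values measure the spread between these samples, which may be technical.

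The mesothelium is the single sheet of cells that covers the lung and lines the pleural cavity; it carries features of both epithelium and mesenchyme. Simple-type keratins are intermediate filament proteins that build obligate pairs of a type I chain (Krt18, Krt19) and a type II chain (Krt7, Krt8). Lysyl oxidases are secreted enzymes whose reaction lets collagen and elastin chains become cross-linked outside the cell.

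All 10 probes were well above the local background on each of the 16 arrays, so the 9 genes of the mesothelium and keratin group were detected in every sample labelled as fibroblasts. All 10 fibroblast markers (such as Col1a1 and Pdgfra) were also detected on all 16 arrays, and so were 12 of 13 mesothelial markers that have a probe, a list that includes the 9 genes themselves; Calb2 was well above background on none. Of 16 epithelial markers, 2 (Cldn7 and Aqp5) were detected on all 16 arrays. On no array were 8 of them detected, among them Cdh1, Epcam, Sftpc and Nkx2-1. The rest were detected on 2 (Ager) to 15 (Krt5) arrays. All 8 markers of leukocytes and macrophages were detected on all 16 arrays. In bulk RNA, fewer cells of a type and less RNA per cell cannot be told apart, for any result below.

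The arrays lie on 2 slides, siLox and scr on slide 1 and siLoxL1 and siLoxL2 on slide 2, each group in a row of its own. Only siLox against scr and siLoxL1 against siLoxL2 are therefore compared within a slide; between siLoxL1 or siLoxL2 and scr, slide and siRNA cannot be told apart. The share of spots well above background was 60.4% to 63.1% on slide 2 and 49.2% to 52.3% on slide 1. Levels are log2 processed signal minus the log2 75th percentile of the array, so that a level of 0 is as bright as that percentile and a step of 1 is a doubling. Levels of different probes depend on the probe and were combined only in the sums of markers, where the brightest probes weigh most. The first principal component, which separates the slides, held 68.7% of the variance. On the second (9.12%), the scr arrays were spread from 8.50 (replicate 4) to 72.5 (replicate 1), against -41.0 to -14.3 for siLox. In the check of the knockdowns, Lox was at 0.39 to 2.04 in siLox and 3.88 to 4.16 in scr, leaving 13.2% of the scr level (adjusted p = 0.00387); its second probe left 22.3%. siLox also lowered both Loxl1 probes (log2 differences -0.49 and -0.50, adjusted p = 0.0395 and 0.0380) and the brightest of 3 Loxl2 probes (-0.71, adjusted p = 0.0282). Loxl1 was at 4.54 to 4.72 in siLoxL1 and 5.65 to 5.80 in siLoxL2, leaving 44.9%. For Loxl2 the brightest probe was at 5.59 to 5.81 in siLoxL1 and 5.25 to 5.58 in siLoxL2, a difference of 0.30 (adjusted p = 0.0645); its other 2 probes differed by 0.34 and 0.38 (adjusted p = 0.0146 and 0.0182).

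The array reads each gene through 60-base probes, and 4 of them are shown because they carry the 3 largest differences between the slides (Krt8, Krt18) and the 1 called rise within slide 1 (Krt19). Their positions (mouse build mm9) were read from the scanner files, and no gene models of that build were used here. The Krt8 probe A_66_P128079 (chr15:101827138-101827197, minus strand) begins at base 1722 of its transcript, and its last 30 bases hold AATAAA, the letters of the polyadenylation signal, in capitals. The second Krt8 probe, A_55_P2128501 (chr15:101828827-101828886, minus strand), lies further upstream by its genome position. It begins at base 1037 of a different transcript record. The Krt18 probe lies at chr15:101862341-101862400 on the plus strand and the Krt19 probe at chr11:100002392-100002451 on the minus strand.
Krt8 probe A_66_P128079, last 30 bases: aaAATAAAgcctcagctggctctgtcaact
Krt8 probe A_55_P2128501: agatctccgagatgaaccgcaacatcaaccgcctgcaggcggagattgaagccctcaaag
Krt18 probe A_51_P324814: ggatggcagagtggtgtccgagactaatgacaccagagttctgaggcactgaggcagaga
Krt19 probe A_51_P356642: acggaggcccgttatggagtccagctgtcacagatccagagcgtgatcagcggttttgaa
Among the array probes of other genes, the longest stretch shared with any of the 10 probes was 18 of 60 bases, for Msln, and 13 to 15 bases for the other 9. The Msln probe also holds AATAAA near its end, shown here in its last 30 bases, which lie within the probe at chr17:25885569-25885628 on the minus strand.
Msln probe A_51_P146560, last 30 bases: ggactcttgaactcAATAAAcagtggcata

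In siLox cells, Wt1, Upk3b and Gpm6a were lower than in scr cells and Krt19 was higher. The falls were 1.27-fold for Wt1, 1.22-fold for Upk3b and 1.60-fold for Gpm6a, and the rise of Krt19 was 1.70-fold. The other 5 genes did not pass the test. The 3 genes that fell are thus mesothelial genes and the 1 that rose is a type I keratin. Of all probes tested in this comparison, 21.1% were called at an adjusted p under 0.05, 11.5% lower and 9.67% higher. The median change of the 9 genes was -0.29, beside -0.05 over all tested probes. The values of 7 of the 10 probes did not overlap between the groups, as was the case for 28.7% of all probes. All 10 fibroblast markers had a lower mean level in siLox than in scr. Their summed linear level, relative to the 75th percentile, was 666 to 886 in siLox and 990 to 1087 in scr. In siLoxL1 and in siLoxL2, on the other slide, 7 of the 10 had a higher mean level than in scr and 3 a lower one. The part of the fibroblast markers in the falls was not tested.

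Wt1 encodes a zinc finger transcription factor of the mesothelium, the kidney and the gonad. Its level was 2.14, 2.08, 2.06 and 2.16 in siLox, against 2.51, 2.49, 2.45 and 2.36 in scr. Every siLox array was below every scr array. The difference was -0.34 ± 0.061 (SE; adjusted p = 0.0144, limma). Upk3b encodes uroplakin 3B, a membrane protein of mesothelial cells and of the bladder lining. Its level was 0.19, 0.08, 0.14 and 0.21 in siLox and 0.44, 0.49, 0.49 and 0.36 in scr, again without overlap, and differed by -0.29 ± 0.061 (adjusted p = 0.0207). Gpm6a encodes a membrane glycoprotein of the proteolipid family, best known from neurons. It was at -2.15, -2.01, -2.14 and -1.71 in siLox and at -1.05, -1.36, -1.39 and -1.48 in scr. The groups were apart, and the difference was -0.68 ± 0.13 (adjusted p = 0.0171).

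Those 3 calls depended on single arrays, and each was lost when at least 1 of the 8 was left out. Without siLox replicate 3 the adjusted p was 0.0512 for Wt1, 0.0644 for Upk3b and 0.0540 for Gpm6a. Gpm6a also missed the threshold without siLox replicate 1 (0.0502) or siLox replicate 2 (0.0519). Upk3b missed it without siLox replicate 2 (0.0647), scr replicate 2 (0.0570) or scr replicate 3 (0.0659), and also when all probes were tested without the filter on dim ones (0.0636). The differences themselves stayed between -0.39 and -0.32 for Wt1, -0.33 and -0.26 for Upk3b, and -0.83 and -0.59 for Gpm6a when 1 replicate, or replicate 4 of both groups, was left out.

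Bnc1 and Msln, the other mesothelial genes, had lower mean levels in siLox that did not pass the test. Bnc1 encodes a zinc finger protein known from basal keratinocytes and germ cells. It was at -0.89, -0.92, -1.16 and -0.94 in siLox and at -0.39, -0.84, -0.42 and -0.72 in scr. The groups did not overlap, but scr replicate 2 came close to the siLox arrays, and the difference of -0.39 ± 0.12 had an adjusted p of 0.0593. Msln encodes mesothelin, a surface glycoprotein anchored by a lipid. It was at 0.88, 0.84, 1.05 and 0.81 in siLox and at 1.14, 1.29, 1.04 and 1.01 in scr, and the groups overlapped. Its difference was -0.22 ± 0.088 (adjusted p = 0.102).

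Krt19, which encodes the short type I keratin without a tail domain, was at 2.65, 2.46, 2.42 and 2.25 in siLox and at 1.39, 1.68, 1.72 and 1.93 in scr. Every siLox array was above every scr array, and the arrays that came closest were replicate 4 of both groups. The difference was 0.77 ± 0.13 (adjusted p = 0.0132), and it stayed past the threshold, at 0.67 to 0.92, whichever replicate was left out. Krt18, the type I partner of Krt8, was at 1.57, 1.57, 1.61 and 1.79 in siLox and at 2.32, 2.07, 2.04 and 1.56 in scr. Here scr replicate 4 lay below all siLox arrays while the other scr arrays lay above them, and the difference of -0.36 ± 0.15 did not pass (adjusted p = 0.124). Without scr replicate 4 it was -0.51 (adjusted p = 0.0130), and without replicate 4 of both groups it was -0.56 (adjusted p = 0.0133). Gpm6a differed by -0.83 and Krt19 by 0.92 without replicate 4 of both groups.

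The type II keratins did not pass the test against scr. Krt8 on the probe at the polyadenylation signal was at 1.25, 1.29, 1.16 and 1.22 in siLox and at 1.06, 1.10, 0.88 and 0.80 in scr. On the upstream probe it was at -0.26, -0.18, -0.19 and -0.12 in siLox and at -0.26, -0.47, -0.49 and -0.50 in scr. Both probes put all siLox arrays above all scr arrays, although on the upstream probe scr replicate 1 reached the lowest siLox array to within rounding. The differences were 0.27 ± 0.083 (adjusted p = 0.0565) and 0.24 ± 0.074 (adjusted p = 0.0528). Without scr replicate 1 the upstream probe differed by 0.30 with an adjusted p of 0.0299. Krt7, which is found in ducts, bladder and mesothelium, was at -2.70, -3.05, -2.96 and -2.95 in siLox and at -3.28, -2.86, -3.33 and -2.95 in scr. The groups overlapped, and the difference of 0.19 had a 95% interval of -0.11 to 0.50 (adjusted p = 0.314). The Krt7 probe was dim on all arrays, with signals of 28.7 to 80.5.

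**Figure D1:**
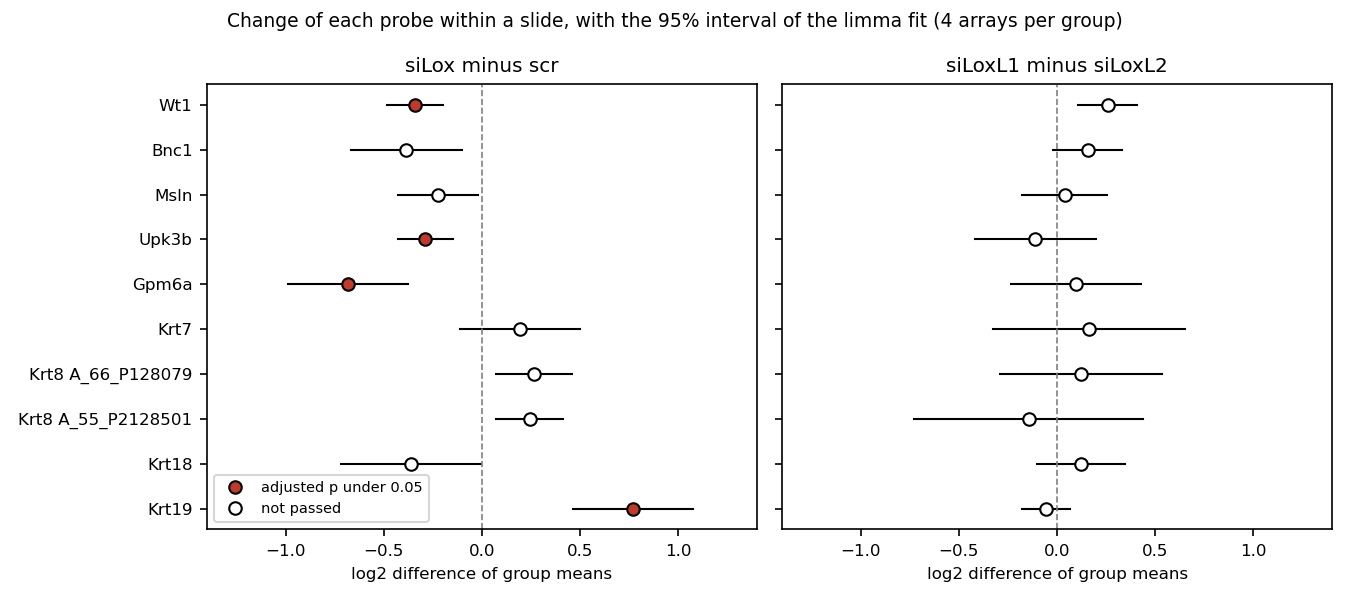
Log2 difference of each probe (points) with its 95% interval (lines) within slide 1 (siLox minus scr, left) and within slide 2 (siLoxL1 minus siLoxL2, right), 4 arrays per group; filled points have an adjusted p under 0.05. On the left Wt1, Upk3b and Gpm6a lie below 0 and Krt19 above it, and on the right no point is filled.

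Between siLoxL1 and siLoxL2, the other comparison within a slide, 0 of the 9 genes passed limma's test, where 6.73% of all tested probes did, 4.41% higher and 2.32% lower in siLoxL1. At an unadjusted p under 0.05 there was 1 of 10 probes, that of Wt1. Wt1 was at 0.01, 0.06, 0.03 and 0.20 in siLoxL1 cells and at -0.13, -0.30, -0.22 and -0.09 in siLoxL2. The groups did not overlap, as for 19% of all probes, and the difference of 0.26 ± 0.065 had an adjusted p of 0.0558. An exact two-sided permutation test of that probe gave p = 0.0286, the smallest that 4 against 4 arrays allow. The intervals of the other differences show what was left undecided: Krt19 differed by -0.06 (95% interval -0.18 to 0.07), Msln by 0.04 (-0.18 to 0.25) and Bnc1 by 0.16 (-0.02 to 0.33). Krt18 differed by 0.12 (-0.10 to 0.35), Gpm6a by 0.10 (-0.23 to 0.43) and Upk3b by -0.11 (-0.42 to 0.20). The dimmest probes had the widest intervals, with 0.16 (-0.32 to 0.65) for Krt7, 0.12 (-0.29 to 0.53) for the Krt8 probe at the polyadenylation signal and -0.15 (-0.73 to 0.44) for the upstream one.

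The siLoxL1 and siLoxL2 arrays differed far more from scr than from each other in all 9 genes, but they lie on the other slide. Krt8, Krt18, Wt1, Bnc1, Krt7, Gpm6a and Upk3b were lower and Msln and Krt19 higher, in both groups. The differences in slide and in siRNA cannot be told apart here. The background was large too: 59.2% of all probes were called between siLoxL1 and scr (20.7% lower, 38.5% higher) and 58.3% between siLoxL2 and scr (21.7% lower, 36.7% higher). All 10 probes were without overlap in both comparisons, as were 55.6% and 54.9% of all probes. Since both comparisons use the same scr arrays, their values stand side by side and are not counted as repeats of each other. The scaling by the 75th percentile left a median change over all probes of 0.18 for siLoxL1 and 0.16 for siLoxL2, against which the members' median changes were -1.48 and -1.58.

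Krt8 differed most. On the probe at the polyadenylation signal it was at -3.30, -3.27, -3.59 and -2.94 in siLoxL1 cells and at -3.12, -3.27, -3.84 and -3.36 in siLoxL2, against the 0.80 to 1.10 of scr given above. That is 18.9-fold lower in siLoxL1 (log2 difference -4.24 ± 0.14, adjusted p = 5.73e-07) and 20.5-fold lower in siLoxL2 (-4.36 ± 0.16, adjusted p = 1.34e-06). With normexp background correction, which pulls dim signals together, these log2 differences were -3.17 and -3.26. The upstream probe was at -5.23, -4.91, -5.19 and -4.48 in siLoxL1 cells and at -4.19, -5.00, -5.29 and -4.74 in siLoxL2. It differed from scr by -4.52 ± 0.16 and -4.38 ± 0.22, so both stretches of the transcript gave differences of similar size. Of all probes, 0.284% changed as much as the upstream probe or more, in either direction, in siLoxL1 and 0.148% in siLoxL2. Its processed signals were 22.9 to 50.1 on slide 2 and 296 to 436 on slide 1; with normexp the differences were -2.55 and -2.53.

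Krt18, the partner of Krt8, was at -1.55, -1.28, -1.26 and -1.06 in siLoxL1 cells and at -1.30, -1.48, -1.39 and -1.46 in siLoxL2, and scr was at 1.56 to 2.32. It was 9.75-fold lower in siLoxL1 (-3.29 ± 0.17, adjusted p = 3.40e-06) and 10.6-fold lower in siLoxL2 (-3.41 ± 0.15, adjusted p = 2.72e-06). Krt7 was at -4.59, -4.95, -4.10 and -4.15 in siLoxL1 cells and at -4.59, -4.30, -4.96 and -4.59 in siLoxL2, below all scr arrays. Its differences of -1.34 ± 0.21 (adjusted p = 8.25e-04) and -1.51 ± 0.16 (adjusted p = 1.46e-04) shrank to -0.54 and -0.60 with normexp. Krt19 went the other way from these 3 keratins. It was at 3.98, 4.08, 3.98 and 4.00 in siLoxL1 cells and at 3.96, 4.09, 4.06 and 4.16 in siLoxL2, close together on all 8 arrays, and exceeded scr 5.03-fold (2.33 ± 0.11, adjusted p = 2.26e-06) and 5.24-fold (2.39 ± 0.11, adjusted p = 3.62e-06). Its processed signals were 13768 to 15642 on slide 2 and 1244 to 3281 on slide 1.

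Among the mesothelial genes, Wt1 was 5.20-fold lower in siLoxL1 (-2.38 ± 0.067, adjusted p = 3.11e-07) and 6.22-fold lower in siLoxL2 (-2.64 ± 0.068, adjusted p = 5.45e-07) than in scr. Bnc1 was at -2.78, -2.57, -2.89 and -2.73 in siLoxL1 cells and at -2.83, -3.01, -2.91 and -2.84 in siLoxL2. It differed from scr by -2.15 ± 0.12 (adjusted p = 5.38e-06) and -2.31 ± 0.11 (adjusted p = 4.21e-06), or by -1.56 and -1.63 with normexp. Gpm6a was at -3.20, -2.83, -2.68 and -2.50 in siLoxL1 cells and at -3.03, -2.95, -2.76 and -2.87 in siLoxL2, and differed from scr by -1.48 ± 0.16 and -1.58 ± 0.11. Under the alternatives run, these differences were -1.08 and -1.15 at the smallest. Upk3b was at -0.73, -0.70, -0.90 and -0.24 in siLoxL1, where replicate 4 stood highest, and at -0.61, -0.56, -0.57 and -0.38 in siLoxL2, and differed from scr by -1.09 ± 0.13 and -0.98 ± 0.069. Before scaling, the signals of Upk3b, Gpm6a and Krt7 overlapped between the slides: Upk3b had 470 to 813 on slide 2 and 461 to 670 on slide 1, Gpm6a had 101 to 170 on slide 2 and 94.7 to 229 on slide 1, and Krt7 had 28.7 to 54.0 on slide 2 and 47.5 to 80.5 on slide 1. These 3 genes thus separated between slides only once the arrays were scaled to each other. Their differences kept their sign and call under quantile normalization as well (Upk3b -1.10 and Gpm6a -1.52 in siLoxL1). The log2 75th percentile was 9.74 to 9.90 on slide 2 and 8.67 to 9.03 on slide 1.

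Msln was the 1 mesothelial gene of the group with higher levels on slide 2. It was at 1.82, 1.69, 1.59 and 2.02 in siLoxL1 cells and at 1.68, 1.86, 1.70 and 1.73 in siLoxL2, above all scr arrays, with differences of 0.66 ± 0.11 (adjusted p = 0.00114) and 0.62 ± 0.080 (adjusted p = 3.43e-04). Relative to the median of all probes these were 0.48 and 0.47. They were ordinary in size, since 30.1% and 31.8% of all probes changed as much.

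**Figure D2:**
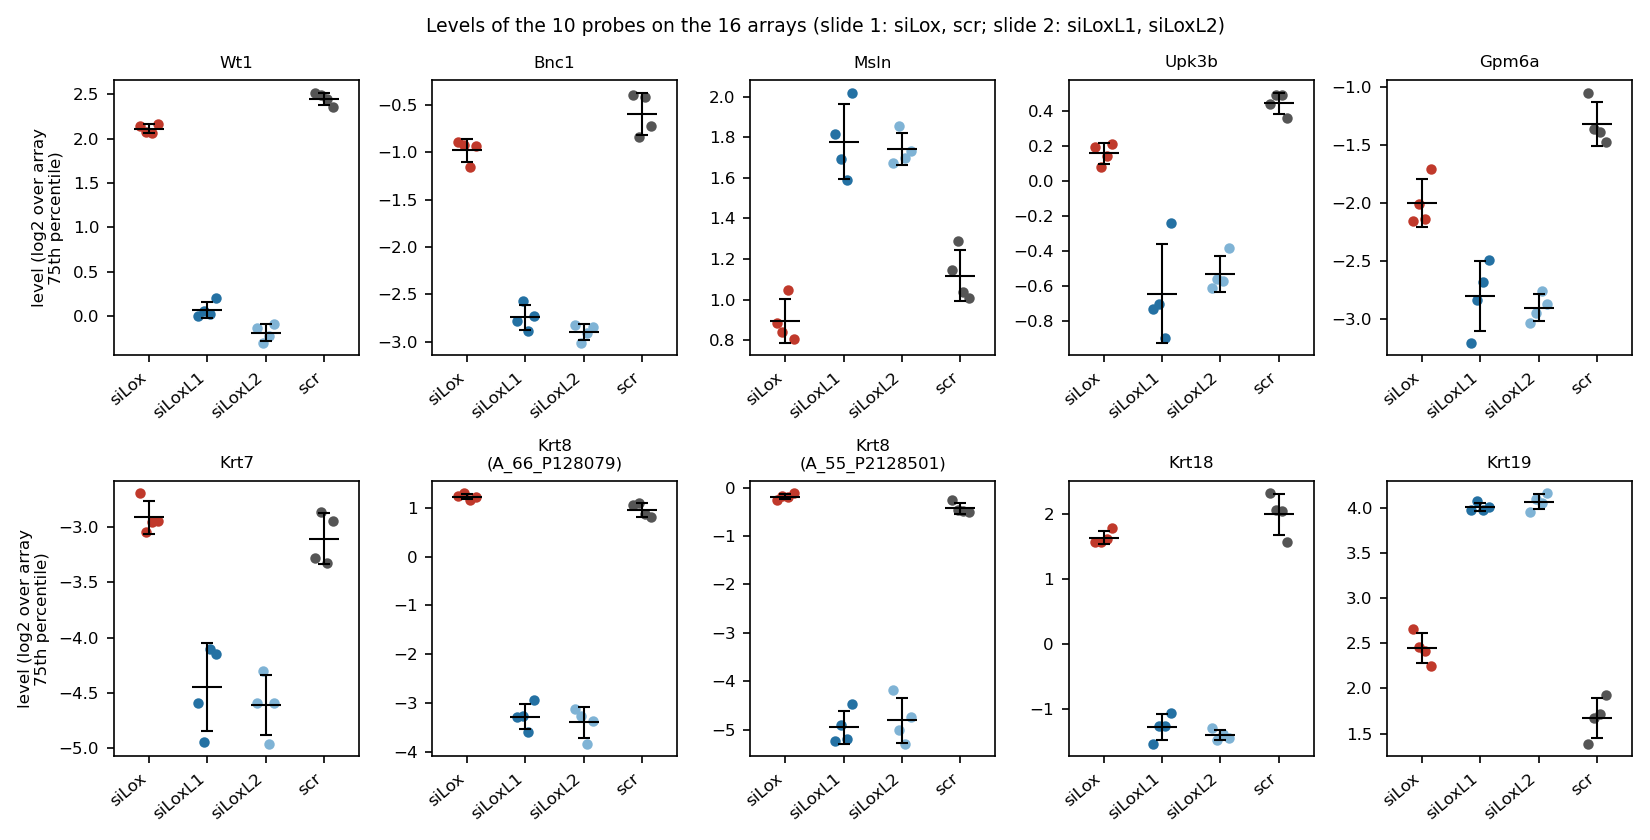
Levels of the 10 probes (log2 over the 75th percentile of the array) on each array, in siLox, siLoxL1, siLoxL2 and scr, with the mean and SD of the 4 arrays in black; each panel has its own vertical scale. For every probe the siLoxL1 and siLoxL2 arrays of slide 2 lie apart from the siLox and scr arrays of slide 1, lower for all but Msln and Krt19.

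Ordered by mean level, scr stood highest and siLox next for Wt1, Bnc1, Upk3b, Gpm6a and Krt18, with siLoxL1 and siLoxL2 lowest; of these, the siLox and scr neighbours did not differ beyond the test for Bnc1 and Krt18. For Krt7 and Krt8, siLox stood highest and scr next, again not apart by the test, with both groups of slide 2 lowest. For Krt19 the order ran from siLoxL2 and siLoxL1, through siLox, to scr. For Msln it ran from siLoxL1 and siLoxL2, through scr, to siLox. siLoxL1 and siLoxL2 were neighbours for every gene and did not differ by the test for any.
Over the 8 arrays of slide 2, the mean level of Krt8 was 4.63% and 4.21% of that on slide 1 for the 2 probes, that of Krt18 was 11.2%, and that of Wt1 19.8%. The nearest arrays of the 2 slides were still 13.4-fold and 12.9-fold apart for Krt8, but only 1.23-fold for Msln and 1.25-fold for Upk3b.

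**Figure D3:**
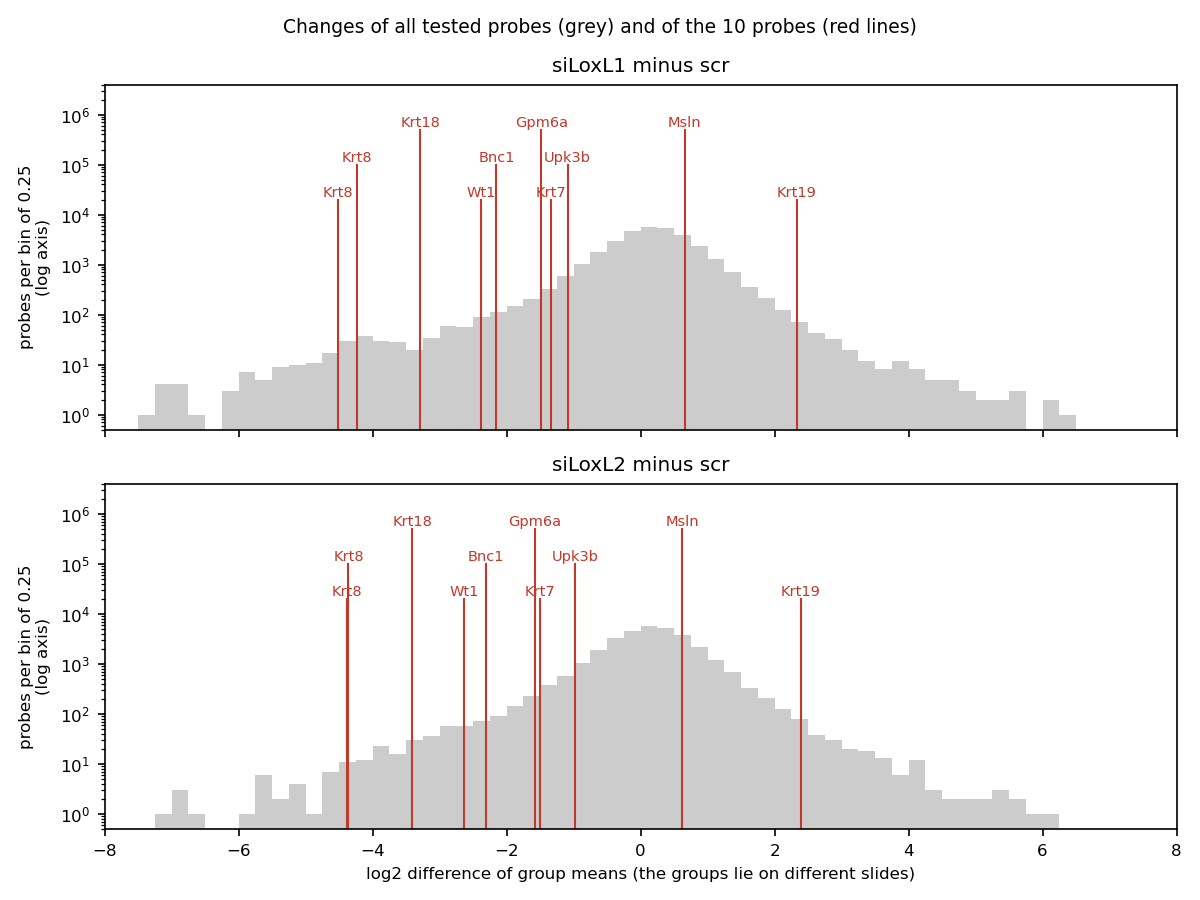
Number of tested probes (grey, log axis) by log2 difference for siLoxL1 minus scr (top) and siLoxL2 minus scr (bottom), with the 10 probes of the 9 genes as red lines; the groups lie on different slides, and 2 probes beyond 8 in the top panel are not drawn. Krt8 and Krt18 lie in the far left tail, Msln within the bulk and Krt19 in the right tail.

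Within groups, some members varied together and others did not. Of the 45 pairs of the 10 probes, 10 correlated below 0 after each group's mean was removed. At the ends, the 2 Krt8 probes correlated at r = 0.80 over the 16 arrays, Gpm6a with Krt18 at 0.74, Wt1 with Upk3b at 0.70, and Krt18 with Krt19 at -0.73 and Bnc1 with Krt7 at -0.58; Upk3b with Krt19 was at 0.02. These are descriptions over 16 arrays that share slides, labelling and scaling. The deviations were not scaled by group, so groups with more spread weigh more. Over all tested probes the median SD was 0.183 in scr, 0.145 in siLox, 0.100 in siLoxL1 and 0.0979 in siLoxL2. Each member was also set against 18060 genes detected on all 16 arrays, passing over the members and names of clones or predicted genes. Each value below is the best of many, so high values can arise by selection alone, which was not tested. The closest to Krt18 were Iars (r = 0.95), an aminoacyl-tRNA synthetase, and Cd2ap (0.94), an actin adaptor, and the closest to Krt19 were Chic2 and Adprhl2 (both 0.95). The closest to Bnc1 were Tor1aip2 (0.90) and Fam57a (0.87), to Gpm6a Fam178b (0.88) and Slc17a9 (0.87), and to Upk3b Klhl38 (0.88) and Zfp57 (0.86). For the other genes the best values were lower: Sf3b3 (0.83) and Cad (0.80) for Krt7, Olfr1372-ps1 and Ly6k (0.81 and 0.80) for Wt1, and Taf7l (0.79) and Banp (0.76) for Msln. For Krt8 the 2 probes named different genes, Oma1 (0.83) and Cym (0.82) for the probe at the polyadenylation signal and Eif4g2 (0.85) and Rab7 (0.82) for the upstream one.

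Krt8 and Krt18, the pair with the largest differences between slides, are also neighbours on chromosome 15, with no other protein-coding gene between them in the RefSeq annotation and on opposite strands. Their promoter windows, 250 bases before to 50 after the start, are shown because the pair moved together between slides (RefSeq, build GRCm38.p6). The Krt8 window lies at chr15:102004293-102004592 on the minus strand and the Krt18 window at chr15:102027966-102028265 on the plus strand; capitals mark matches to TATAAA or its complement.
Krt8 promoter: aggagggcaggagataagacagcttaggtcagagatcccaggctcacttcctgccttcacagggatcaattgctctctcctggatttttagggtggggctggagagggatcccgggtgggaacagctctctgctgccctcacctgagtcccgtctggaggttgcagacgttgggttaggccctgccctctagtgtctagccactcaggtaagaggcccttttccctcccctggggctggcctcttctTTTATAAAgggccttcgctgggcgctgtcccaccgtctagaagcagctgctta
Krt18 promoter: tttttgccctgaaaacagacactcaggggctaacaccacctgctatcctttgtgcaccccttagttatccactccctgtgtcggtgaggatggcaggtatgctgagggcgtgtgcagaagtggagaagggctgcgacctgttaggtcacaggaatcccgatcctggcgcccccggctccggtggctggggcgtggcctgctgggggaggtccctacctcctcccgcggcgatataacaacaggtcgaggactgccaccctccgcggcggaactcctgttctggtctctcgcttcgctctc
RefSeq windows were given for 6 of the 9 genes (7 windows, 2 of them for Gpm6a). They were searched on both strands for TATAAA (in 13.6% of all 32851 promoter windows), CCAAT (37.4%), GGGCGG (35.7%), TGANTCA (7.81%), CATTCC (14.7%) and GCGGGGGCG (2.91%). The Krt8 window held TATAAA on both strands in overlapping letters beside the annotated start, and the Krt18 window none of the 6 motifs. The Bnc1 window held GGGCGG or its complement 6 times, at a GC content of 83.3%, and the Krt7 window 4 times at 66.3%, where the median of all windows was 52.7%. CATTCC or its complement was found once in Upk3b and once in Gpm6a. A match is a description of letters, and no binding was measured.

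Other genes of the mesothelium did not all follow the members. Of 12 further mesothelial genes, 10 were tested; Calb2 did not pass the filter and Muc16 had no probe of that name. In siLox against scr, Nkain4 (-1.46, adjusted p = 0.0143) and Upk1b (-0.42, adjusted p = 0.00951), a tetraspanin that pairs with uroplakins, were lower, and Tbx18, a T-box transcription factor, was higher (0.41, adjusted p = 0.0242). That is 2 lower and 1 higher of 10, with 7 not passed. Their median was -0.17, beside -0.05 for all probes. In siLoxL1 against siLoxL2, 1 of 10 passed, Pdpn (0.17, adjusted p = 0.0437), the gene of podoplanin. Against scr, 5 were higher and 4 lower in siLoxL1 and likewise in siLoxL2, led by Pdpn (2.28 and 2.11), Lrrn4 (-1.41 and -1.43) and Aldh1a2 (1.34 and 1.29), which makes retinoic acid. For this list and those below, the shares called over all tested probes were 59.2% in siLoxL1 and 58.3% in siLoxL2 against scr. Within slides they were 21.1% in siLox against scr and 6.73% in siLoxL1 against siLoxL2. The summed linear level of the 13 mesothelial markers on the array, relative to the 75th percentile, was 22.1 to 23.3 in siLox, 23.1 to 25.3 in siLoxL1, 23.1 to 26.1 in siLoxL2 and 22.2 to 24.7 in scr. Krt19 alone made up 15.7 to 16.9 of it in siLoxL1 and 15.5 to 17.8 in siLoxL2, against 2.62 to 3.80 in scr. The other 12 markers summed to 16.6 to 17.5 in siLox, 7.34 to 9.31 in siLoxL1, 7.55 to 8.21 in siLoxL2 and 18.4 to 22.0 in scr, so that without Krt19 the sum of these 12 was lower on slide 2 than on slide 1. These 12 include the other members, so their sum largely repeats the members' own differences. Pdpn, Aldh1a2 and Sulf1, higher in both slide 2 groups than in scr, are not among them, nor is Nkain4, which was lower. The direction of such a sum depends on the genes listed.

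Of 44 other keratins, 19 passed the filter. In siLox against scr, Krt17 (1.52, adjusted p = 0.0187), a keratin of stressed and basal epithelium, Krt42 (0.88, adjusted p = 0.0140) and Krt10 (0.40, adjusted p = 0.0267), a keratin of differentiating epidermis, were higher, and Krt80 was lower (-0.58, adjusted p = 0.0374). Krt17 passed the filter on dim probes only through siLox, where it was high, so its call is not independent of the filter. Thus 3 of the 19 were higher and 1 lower, while 15 did not pass and the list's median was -0.06. Of all tested probes, 9.67% were called higher and 11.5% lower in this comparison, with a median of -0.05. In siLoxL1 against siLoxL2, Krt10 passed (0.26, adjusted p = 0.0112). Against scr, 6 were higher and 2 lower in siLoxL1, and 7 higher and 2 lower in siLoxL2, with Krt42 at 1.89 and 2.05 and Krt13 at 0.83 and 1.06. Krt86 is also counted as higher, but only 1 of 4 scr arrays read it well above background, so its size is not given. Krt17 was well above background on none of the slide 2 arrays, and on 3 of 4 scr arrays. Scr was at least 4.07-fold above siLoxL1 (adjusted p = 4.29e-04) and at least 4.34-fold above siLoxL2 (adjusted p = 1.59e-04).

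The partners that tie keratin filaments to junctions, and other intermediate filaments, moved in both directions. Of 7 cytolinkers and keratin-associated genes, Dsp, the gene of desmoplakin, was called higher in siLox than in scr (adjusted p = 0.0465). Dsp was well above background on 4 siLox arrays and 1 scr array. It passed the filter on dim probes only through siLox, where it was high, so the call is not independent of the filter and its size is not given. Plec, the gene of plectin, was lower (-0.29, adjusted p = 0.0480). Against scr, 1 of these 7 was higher and 4 lower in siLoxL1 and in siLoxL2. Eppk1, the gene of epiplakin, was lower by 1.25 and 1.20 on the log2 scale. Dsp is counted among the lower genes, but it was well above background on 2 arrays of siLoxL1, 0 of siLoxL2 and 1 of scr, and no size is given for it. Plec was higher (0.72 and 0.65), and Trp63, a transcription factor of basal epithelial cells, was lower (-0.65 and -0.66). Of 10 other intermediate filament genes tested, 2 were higher and 3 lower in siLox, with Nefm, a neurofilament chain, at 2.18 (adjusted p = 0.0128), Synm, the gene of synemin, at -0.81 (adjusted p = 0.0169) and Lmnb1, a nuclear lamin, at -0.48 (adjusted p = 0.0413). Nefm was also lower in siLoxL1 than in siLoxL2 (-0.76, adjusted p = 0.0213), the 1 of 10 that passed there, with 2 siLoxL1 arrays and 4 siLoxL2 arrays well above background. Against scr, 3 were higher and 5 lower in siLoxL1, and 2 higher and 5 lower in siLoxL2, with Nefm (well above background on 2 of 4 siLoxL1 and 3 of 4 scr arrays) at -2.28 and -1.53, Des, the gene of desmin, at -1.06 and -0.85, and Sync at -0.73 and -0.98.

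Of 20 genes of epithelial junctions and lung epithelium, 8 were tested. Hopx, a homeodomain protein of alveolar type I cells and other tissues, was lower in siLox than in scr (-0.77, adjusted p = 0.0106), and 7 did not pass. Between siLoxL1 and siLoxL2, 0 of 8 passed. Against scr, 4 were higher and 2 lower in siLoxL1 and 5 higher and 2 lower in siLoxL2. Over all tested probes, 59.2% and 58.3% were called in these comparisons. Cldn3 and Cldn4, both counted as higher, passed the filter on dim probes only through the slide 2 groups, where they were high. Neither was well above background on any scr array, and no size is given for Cldn4. Aqp5, a water channel of alveolar type I cells, was higher by 3.54 and 3.50 on the log2 scale. Cldn3, a tight junction claudin, was well above background on none of the scr arrays, and was at least 3.73-fold higher in siLoxL1 cells and at least 3.78-fold higher in siLoxL2. Hopx was lower (-1.26 and -1.12). The summed level of the 16 epithelial markers was 0.537 to 0.699 in siLox, 2.19 to 2.41 in siLoxL1, 2.14 to 2.49 in siLoxL2 and 0.550 to 0.677 in scr. Most of its difference between slides is Aqp5: the other 15 markers summed to 0.428 to 0.546 in siLox, 0.551 to 0.590 in siLoxL1, 0.561 to 0.774 in siLoxL2 and 0.417 to 0.522 in scr. Their part in the differences of Krt8, Krt18 and Krt19 was not tested; Cdh1 and Epcam were well above background on no array. The summed level of the 8 leukocyte markers was 21.9 to 26.3 in siLox, 29.7 to 32.2 in siLoxL1, 32.5 to 35.5 in siLoxL2 and 21.2 to 24.2 in scr. Most of that difference is Itgam, since the other 7 summed to 9.98 to 11.7 in siLox, 10.5 to 11.6 in siLoxL1, 10.9 to 11.7 in siLoxL2 and 7.01 to 11.5 in scr, and the part of these markers in the results was not tested either.

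All 6 transcription factors of epithelial-mesenchymal transition were tested. In siLox, Twist2 (-0.48, adjusted p = 0.0110), Zeb1 (-0.38, adjusted p = 0.0304) and Snai2 (-0.29, adjusted p = 0.0446) were lower than in scr and Zeb2 was higher (0.31, adjusted p = 0.0345). Snai2 was higher in siLoxL1 than in siLoxL2 (0.22, adjusted p = 0.0430), the 1 of 6 that passed there. Against scr, Twist2 was higher on slide 2 (0.79 in siLoxL1 and 0.86 in siLoxL2), as was Zeb2 (0.64 and 0.51), and Snai1 was lower (-0.60 and -0.72). Thus 3 were higher and 1 lower in siLoxL1, and 2 higher and 1 lower in siLoxL2.

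**Figure D4:**
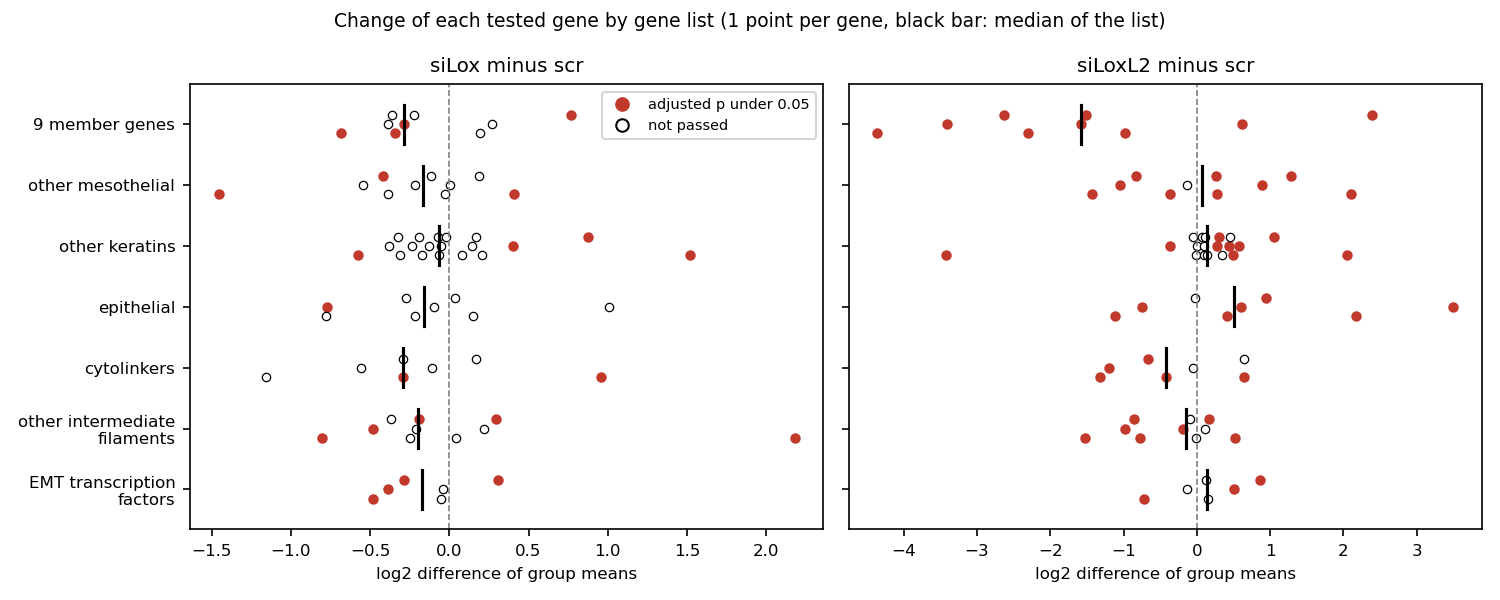
Log2 difference of each tested gene (1 point per gene, filled at an adjusted p under 0.05) for siLox minus scr (left, same slide) and siLoxL2 minus scr (right, different slides), by gene list, with the median of each list as a black bar. The median of the 9 genes lies at -0.29 on the left and at -1.58 on the right, where the medians of the other lists lie between -0.42 and 0.51.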

How the data were processed

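Per the labels' protocols, total RNA was labelled with Cy3. Per the submitters' processing notes, the scanner files were made with Agilent Feature Extraction 10.7.3.1; per the file headers, they hold intensity values per spot. The value table deposited by the authors holds log2 values with 1 common distribution (largest gap between sorted columns 0.000965), a median of 4.83 in every column and a correlation of 0.997 to 0.999 with the scanner values on the log2 scale; it served as an alternative. Its scale is log2 without gene centring, and which normalization gave it is not stated. Spots that the deposited 0 or 1 flags mark as outliers were left out. Spots of a probe were averaged and the 75th percentile of each array's non-control probes was subtracted on the log2 scale. A probe was kept where every array of some group (4 arrays) read it well above background (32430 of 55681 with a usable spot on every array). Gene names come from the scanner files, updated through RefSeq accessions for 28026 probes. 0 spots were saturated.

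Each comparison was tested with limma 3.58.1 in R 4.3.3 on the 8 arrays of its 2 groups, with Benjamini-Hochberg adjustment over all 32430 probes and a threshold of 0.05. On simulated data with known changes, of probes changed by 0.5, 1 and 2 (log2), 35.5%, 61.4% and 94.1% were recovered for siLox against scr. For siLoxL1 against siLoxL2 these were 56.4%, 86.7% and 100%. Unchanged probes called numbered 5 and 17. Only 62, 70 and 68 probes were changed in the first simulation and 78, 60 and 62 in the second. In the data, 6851 and 2182 were called. The adjustment depends on the share of changed probes, so these rates do not give the recovery in the data. The number of arrays limits the precision. Alternatives were other scalings, filters and fits, and leaving out each replicate; leaving out replicate 4 of siLox and scr together was added after seeing the data. The members and lists were chosen with earlier results of these data known. Each list names up to 3 genes per comparison that passed with the largest change, and Krt10 and Snai2 in siLox were named beyond that rule, after their values were seen. The brightest probe stands for a gene. A gene detected on no array of a group has a lower bound: each such array counts with the higher of its own level and the lowest level among its probes well above background. Replicate numbers were not taken to pair the samples, since not every pair correlated over 0.1: deviations of same-numbered samples correlated at -0.15 to 0.00 between siLox and scr and at 0.04 to 0.20 between siLoxL1 and siLoxL2, over 0.1 there for 3 of 4 numbers.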

Additional observations from a re-analysis of the deposited data

Results flagged for a closer look

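The Krt8 probe A_55_P2128501 was at -0.26 in scr replicate 1, while the other scr arrays were at -0.50 to -0.47, a gap of 0.21, or 0.851 of the range of the group. This was the 1 value far from its group in 40 tests of a group's highest or lowest array, where chance gives about 1 in 20. The other Krt8 probe did not set that array apart.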

How the results depend on the processing

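All 9 genes kept their direction and call against scr in siLoxL1 and siLoxL2 under every alternative run (7 lower, 2 higher); over all probes, 33809 and 32794 were called without the filter on dim probes. In siLox against scr, the lower genes numbered 5 with all 16 arrays in the fit (12844 probes called in all). Adding the slide as a block could not change this fit, since each group lies wholly on 1 slide, so it is no separate check. The higher genes numbered 2, Krt8 being added, under quantile, normexp, the authors' table, the stricter filter, 1 probe per gene and a trended fit. Leaving out 1 replicate gave 0 to 4 lower genes, and 1 higher each time; 1745 to 9937 probes were called in all. Without the filter on dim probes 2 genes were lower, Upk3b being lost, and 2623 probes were called; with the stricter filter and the trended fit 4 were lower, Bnc1 being added. With the replicate block, 0 genes were lower and 0 higher, and 0 of all probes were called. Wt1 in siLoxL1 against siLoxL2 made 1 gene higher under the stricter filter, all 16 arrays (necessarily the same with the slide block), 1 probe per gene and the trended fit. All probes called there were 3538 with normexp, 412 without the filter, 1033 with all 16 arrays, 4005 with the trended fit, 515 with the replicate block and 564 to 1320 without 1 replicate. Directions that turned there, none of them called, were Msln (-0.0467 with normexp; -0.0427 without siLoxL1 replicate 4, and up to 0.102 without another replicate), Gpm6a (-0.00588 without siLoxL1 replicate 4, up to 0.230), Krt8 upstream (0.0592 without siLoxL2 replicate 1, down to -0.307) and Krt8 at the polyadenylation signal (-0.0261 without siLoxL2 replicate 3, up to 0.225). The cause was not tested. Dim signals limit Krt7, Gpm6a and, on slide 2, Krt8 and Bnc1. The Gpm6a signals were 94.7 to 229, and its difference in siLox against scr was -0.53 with normexp.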
